A study of Mus musculus with 12 samples.

Results

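The neuropeptide Y (NPY) receptors described here are Npy1r, Npy2r and Npy5r, the mouse genes for the Y1, Y2 and Y5 receptors. They were taken by name from the deposited count table and are 3 of its 19878 genes. The libraries came from TRAP-seq (translating ribosome affinity purification), in which RNA bound to a GFP-tagged ribosomal protein, L10a, is pulled down with anti-GFP beads. The mice (Pomc-CreER; ROSA26eGFP-L10a in the labels, where the study writes the Cre as CreERT2, strain C57BL/6) carried a tamoxifen-inducible Cre driven by Pomc, so that the tag was switched on by tamoxifen in cells that were expressing Pomc at the time of injection, and the arcuate nucleus was dissected at postnatal day 12 (P12) or 60 (P60). At each age 3 pull-down (PD) and 3 supernatant (Sup) libraries were made from the same lysates, giving 4 groups and 12 libraries. All 4 groups carried both alleles and received tamoxifen, so no group without the tag or without Cre was compared. By the study's methods, the last tamoxifen dose came fewer days before the dissection at P12 than at P60. The supernatant is the lysate left after the pull-down and holds RNA of every cell type of the tissue, the tagged cells included. Whether the tissue of several mice was pooled for a library is not given in the sources used here.

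NPY is released in the arcuate nucleus mainly by the AGRP neurons, which increase feeding, and acts on receptors that couple to inhibitory (Gi/o) G proteins. Through these, NPY lowers cyclic AMP, opens GIRK potassium channels and closes presynaptic calcium channels, so a neuron that carries the receptors is made less active. Y1 and Y5 lie mostly on the cells that receive NPY and are the receptors through which it stimulates feeding, whereas Y2 is known mainly as a presynaptic receptor that restrains transmitter release and that also answers to the gut peptide PYY. POMC neurons, which decrease feeding, are among the neurons inhibited by NPY.

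In the GENCODE M21 annotation of mm10, Npy1r lies on chromosome 8 at 66697192 to 66706792 on the plus strand and Npy5r on the same chromosome at 66679965 to 66688128 on the minus strand. The 2 genes stand head to head, with 9.06 kb between them and transcription leading away from the gap on both sides. Npy2r is alone on chromosome 3, at 82538383 to 82548084 on the minus strand. No annotated gene overlaps any of the 3, so their counts cannot hold reads of an antisense or overlapping neighbour in that annotation. The promoters of the 3 genes are shown because the genes were all higher in the P60 pull-downs and because Npy1r and Npy5r are neighbours. The sequences are RefSeq's (GRCm38.p6, 250 bases before to 50 after RefSeq's own start, 5′ to 3′ on the gene's strand) and occupy chr8:66697172-66697471 for Npy1r, chr8:66688045-66688344 for Npy5r and chr3:82548036-82548335 for Npy2r, with matches to the searched motifs in capitals. RefSeq's start is not the outermost start of the GENCODE loci given above, lying 230 bases downstream of it for Npy1r, 34 downstream for Npy5r and 1 upstream for Npy2r, so most of the Npy1r window is inside the GENCODE gene and all motif distances are from the RefSeq starts.
Npy1r: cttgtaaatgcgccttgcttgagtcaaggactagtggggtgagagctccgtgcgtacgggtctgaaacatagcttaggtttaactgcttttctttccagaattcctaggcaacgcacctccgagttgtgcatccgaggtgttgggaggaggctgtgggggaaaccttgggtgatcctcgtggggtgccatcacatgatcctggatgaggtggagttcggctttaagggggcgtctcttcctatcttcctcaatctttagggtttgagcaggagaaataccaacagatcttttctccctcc
Npy5r: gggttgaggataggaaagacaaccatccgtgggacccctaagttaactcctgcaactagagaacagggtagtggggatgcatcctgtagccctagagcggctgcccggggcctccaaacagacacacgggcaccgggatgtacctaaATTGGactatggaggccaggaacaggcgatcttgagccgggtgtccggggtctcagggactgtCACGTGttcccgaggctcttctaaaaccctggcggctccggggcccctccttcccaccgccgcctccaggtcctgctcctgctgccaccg
Npy2r: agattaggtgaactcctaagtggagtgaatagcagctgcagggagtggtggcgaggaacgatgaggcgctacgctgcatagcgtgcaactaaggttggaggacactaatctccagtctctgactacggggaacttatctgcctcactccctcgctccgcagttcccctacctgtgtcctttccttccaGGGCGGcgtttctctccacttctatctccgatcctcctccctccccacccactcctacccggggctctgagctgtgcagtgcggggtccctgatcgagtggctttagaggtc
Both strands were searched for 7 motifs, namely the E-box written CACGTG, the cyclic AMP response element written TGACGTCA, the TATA box written TATAAA, the CCAAT box, the GC box written GGGCGG, the STAT form written TTCNNNGAA and the homeodomain core written TAATTA. Npy5r held CACGTG, which 7.15% of the 32851 promoters in the table hold, beginning 40 bases before the RefSeq start, and CCAAT on the opposite strand (printed as ATTGG), which 37.4% hold, beginning 103 bases before it. Npy2r held only GGGCGG, 62 bases before the start, a motif of 35.7% of promoters. The Npy1r window held none of the 7, which says nothing of the bases before the GENCODE start that it leaves out, and had the lowest GC content of the 3, at 51.7%, against 61.7% for Npy5r and 57.7% for Npy2r. No motif was shared by any pair of the 3 windows.

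The library totals were 6.31 to 35.2 M counts (M, counts in units of 1000000), the shallowest being P12 PD replicate 1. Pomc, the gene that drives the Cre, was at 2530 to 4510 CPM (counts per 1000000 counts of a library) when the P60 pull-downs were read and at 18.4 to 60.3 CPM when their supernatants were, and GFP, the tag itself, was at 152 to 256 and 18.2 to 27.1 CPM. At P12 the labelled cell type was much less distinct. Pomc was at 9.83, 21.9 and 81.7 CPM in the pull-downs against 7.71 to 9.36 in the supernatants, and its difference (log2 fold change 2.01 ± 0.53 SE, adjusted p = 0.0248) was lost without replicate 3 (1.26, adjusted p = 0.606). Of the 5 POMC neuron markers examined (Pomc, GFP, Cartpt, Prdm12 and Tbx3), 2 were called higher in the pull-down at P12 and 5 at P60. The number of tagged cells in a lysate and the RNA per cell cannot be told apart in bulk libraries such as these, so a lower level at P12 may stand for either. The shorter time from the last tamoxifen dose at P12 also goes with age and cannot be told apart from it in this design.

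Npy1r is the gene of the main receptor through which NPY acts on the cells that receive it. The level of Npy1r was 49.9, 43.2 and 33.8 CPM in replicates 1 to 3 of the P60 pull-down and 10.1, 9.01 and 10.8 CPM in the matching supernatants. At P12 it was 3.96, 5.39 and 3.28 CPM in the pull-downs and 11.1, 9.79 and 9.31 CPM in the supernatants. The pull-downs therefore stood above every supernatant at P60 and below every supernatant at P12, while the supernatants of both ages overlapped. The P12 values rest on 25, 97 and 65 counts and those at P60 on 365 to 811.

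Npy2r is the gene of the presynaptic type. It was at 26.4, 36.2 and 36.6 CPM in the P60 pull-downs and at 10.9, 9.32 and 8.36 CPM in the P60 supernatants. At P12 it was at 4.60, 9.89 and 9.89 CPM (29, 178 and 196 counts) in the pull-downs and at 12.2, 11.2 and 8.85 CPM in the supernatants. The P60 pull-downs were again above all other libraries, but the P12 pull-downs overlapped the supernatants of both ages, and the lowest of the 3 was the shallow replicate 1.

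Npy5r, the gene of the other feeding receptor, had the widest range between groups. In the P60 pull-downs it was at 15.3, 13.6 and 15.8 CPM (211, 256 and 171 counts), and in the P60 supernatants at 1.94, 1.34 and 2.97 CPM. In the P12 pull-downs it had 0, 3 and 0 counts, that is 0.167 CPM in replicate 2, and the counts of 0 allow up to 0.476 CPM in replicate 1 and 0.151 CPM in replicate 3 (3 counts of the total, counting error only). The P12 supernatants, with 2.27, 1.71 and 1.67 CPM, were all above these limits. The 4 groups thus ran from the P12 pull-down through supernatants that overlapped between ages to the P60 pull-down.

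**Figure D1:**
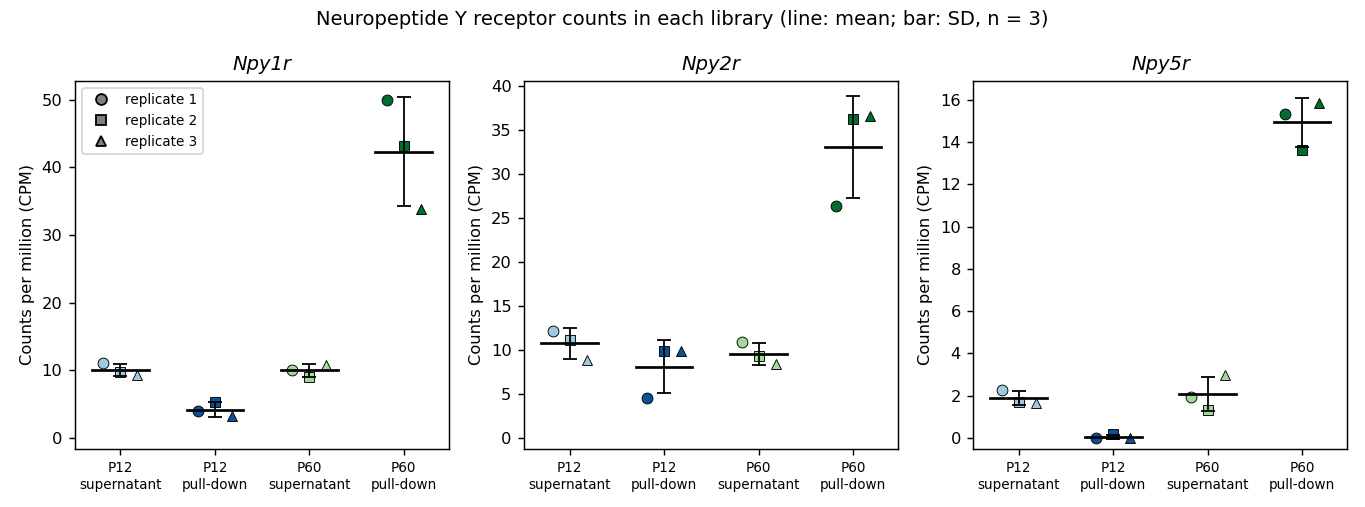
CPM of Npy1r, Npy2r and Npy5r (1 panel each, linear axes of different height) in the 3 libraries of each group, with symbols for replicate numbers, a line for the mean and a bar for the SD (n = 3). The P60 pull-downs lie above all other libraries in each panel, at means of 42.3, 33.1 and 14.9 CPM, and the 2 supernatant groups overlap.

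At P60 all 3 receptors were called higher in the pull-down than in the supernatant by edgeR's quasi-likelihood test with the replicate number as a block and Benjamini-Hochberg adjustment. Of the 14444 genes tested at P60, 7.11% were called higher and 4.53% lower. Npy5r had a log2 fold change of 3.13 ± 0.50 (SE, adjusted p = 1.41e-05), and its pull-down was 7.91, 10.2 and 5.33 times the supernatant in the 3 pairs. For Npy1r, at a fitted 4.91-fold (adjusted p = 3.52e-08), the pairs gave 4.95, 4.79 and 3.12. For Npy2r, at a fitted 4.04-fold (adjusted p = 3.08e-06), they gave 2.42, 3.89 and 4.38. Every pair of every receptor was thus above 1, and replicate 3, the lowest for Npy1r and Npy5r, was the highest for Npy2r. The 3 calls were kept when any 1 pair was left out, with adjusted p of at most 8.68e-05. In a fit of all 12 libraries together, where P12 and P60 share 1 estimate of the spread, the call of Npy5r was lost (3.12, adjusted p = 0.0846) and the other 2 were kept.

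At P12 none of the 3 was called, where 6.28% of the 14852 genes tested were called higher and 1.95% lower (edgeR, 0 of 3 also at an unadjusted p under 0.05 and by DESeq2). The Npy1r pull-down was 0.359, 0.550 and 0.353 times the supernatant in the 3 pairs (log2 fold change -0.93 ± 0.91, adjusted p = 0.647). The groups did not overlap in CPM, but the difference was no larger than about its own standard error. Npy2r was at 0.377, 0.884 and 1.12 times the supernatant (-0.11 ± 0.77, adjusted p = 0.958), and its fitted sign turned without replicate 1 (0.36). For Npy5r, 3 counts in the pull-downs together against 168 in the supernatants, relative to the totals, gave a ratio of 0.0369 with a 95% counting interval of 0.00754 to 0.110 that leaves out the spread between libraries. With that spread the adjusted p was 0.337 (unadjusted 0.0755), and it was 0.0196 in the fit of all 12 libraries. The median log2 fold change of all genes tested was -0.27 at P12 and -0.10 at P60.

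How often the P12 pull-downs missed a gene of Npy5r's abundance was counted. Of the 1788 tested genes with a mean of 1 to 3 CPM in the P12 supernatants, 57.6%, 19.2% and 35.2% had no count in pull-down replicates 1, 2 and 3, and 9.68% had 3 counts or fewer over all 3 libraries, as Npy5r did. At P60 the share with 3 counts or fewer was 4.94% of 1661 genes. Npy5r was therefore among the minority of genes that nearly vanished at P12, but 173 genes of its level did so. For the level of Npy1r and Npy2r (8 to 12 CPM in the supernatant), 107 of 1068 genes (replicate 1), 0% (replicate 2) and 1.69% (replicate 3) had no count, and none had so few over all 3 libraries. The part of missed molecules in the P12 values of Npy5r was not tested beyond these counts.

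The difference of the pull-down effect between ages was tested directly, over all 12 libraries. It was 3.19 ± 0.63 on the log2 scale for Npy1r (adjusted p = 0.0088) and 7.77 ± 1.66 for Npy5r (adjusted p = 0.0172), in a comparison in which 0.438% of 15311 genes were called higher at P60. For Npy2r it was 2.07 ± 0.67 (adjusted p = 0.172), so that a difference between ages was not shown by this test, although DESeq2 called it (2.07, adjusted p = 0.0299). In the same edgeR test all 5 POMC neuron markers were called higher at P60. Among them were Pomc at 4.80 ± 0.41 (adjusted p = 4.85e-07) and GFP at 2.08 ± 0.29 (adjusted p = 0.000295). The part of this change of the whole pull-down in the receptors' difference was not tested. The calls of Npy1r and Npy5r were each lost when any 1 of the P60 pairs was left out, with Npy1r at 3.05 to 3.40 and adjusted p of 0.0764 to 0.116 and Npy5r at 7.62 to 8.16 and 0.116 to 0.174. Leaving out P12 replicate 2, the only P12 pull-down with Npy5r counts, kept the Npy5r call and moved its size to 11.13. That value of 11.13 depends on the prior count given to P12 pull-down counts of 0 and is not a bound. With all libraries the size fitted for Npy5r rests on the 3 counts of P12 PD replicate 2, and DESeq2 gave 7.79.

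Between the pull-downs of the 2 ages, Npy1r was 8.85-fold higher at P60 (log2 fold change 3.14 ± 0.48, adjusted p = 0.00125), where 1.89% of 13570 genes were called higher at P60. Npy2r was also called higher (1.85 ± 0.51, adjusted p = 0.0478). Its call rested on single libraries, being lost without P12 PD replicate 2 (2.02, adjusted p = 0.0808) or 3 (2.04, 0.0512) and without P60 PD replicate 1 (2.04, 0.102), 2 (1.76, 0.208) or 3 (1.76, 0.240). Npy5r was called higher by edgeR as well (7.49 ± 1.33, adjusted p = 0.00322). Its summed 638 counts against 3 gave a ratio of 216 relative to the totals. The 95% counting interval of that ratio, 73.7 to 1052, leaves out the spread between libraries. The fitted Npy5r value ran from 6.83 to 10.63 on the log2 scale when single libraries were left out, the highest without P12 PD replicate 2. Pomc and GFP moved in the same direction, from means of 37.8 to 3372 CPM and of 57.4 to 198 CPM, and the part of the purity of the pull-down in the receptors' difference was not tested.

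The supernatants gave the other view of the same tissue. None of the 3 receptors was called between the ages there, in a comparison in which 20.9% of 15251 genes were called higher and 20.8% lower at P60 (edgeR, 0 of 3 also at an unadjusted p under 0.05 and by DESeq2). The log2 difference was -0.05 ± 0.15 for Npy1r (adjusted p = 0.812), -0.21 ± 0.16 for Npy2r (adjusted p = 0.299) and 0.10 ± 0.35 for Npy5r (adjusted p = 0.852). The sign for Npy1r turned without P60 Sup replicate 2 (0.016) and that for Npy5r without P60 Sup replicate 3 (-0.26). In mean CPM the P60 supernatants were at 0.993, 0.887 and 1.10 times the P12 level for Npy1r, Npy2r and Npy5r.

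**Figure D2:**
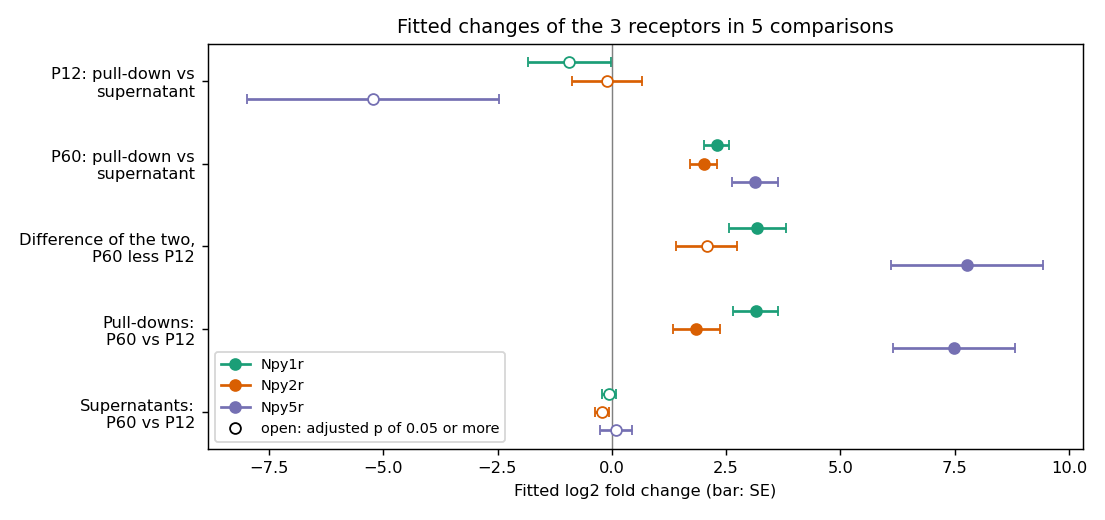
Fitted log2 fold changes (points) with their standard errors (bars) of Npy1r, Npy2r and Npy5r in 5 comparisons, filled where the adjusted p was under 0.05. At P60 all 3 points are filled, at 2.30, 2.01 and 3.13, at P12 none is, and between the supernatants all 3 lie near 0.

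Levels of different genes can be set against each other only per length of transcript, so CPM was divided by the exonic length of each gene (3454, 3383 and 2555 bp for Npy1r, Npy2r and Npy5r). The summed level of the 3 receptors in the adult pull-downs was 27.9 ± 0.927 CPM per kilobase (SD, n = 3), and in their supernatants 6.52 ± 0.553. At P12 the 2 values were 3.64 ± 1.04 and 6.82 ± 0.864. Within the P60 pull-downs the sum varied less than its main parts, since the library with the most Npy1r had the least Npy2r and the reverse. Npy1r made up 51.2% of the sum in replicate 1 and 36.5% in replicate 3, and Npy2r 27.6% and 40.4%.

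Npy5r took a larger share in the adult pull-downs than elsewhere. Its share was 18.7% to 23.1% there and, among supernatants of that age, 8.89% to 17.2%, with no overlap. At P12 it was 9.82% to 11.5% in supernatants and 0% to 1.43% in pull-downs. An exact two-sided permutation test of 3 against 3 libraries cannot give a p below 0.1, and gave 0.1 for this share in pull-down against supernatant at each age and between the pull-downs, and 0.9 between the supernatants. After pull-down at P12, Npy2r made up most of the sum (54.2% to 75.5%), more than the 43.9% to 48.6% of the matching supernatants (exact permutation p = 0.1). The share of Npy1r differed least, with group means of 34.9% to 44.3% and exact permutation p of 0.3 to 0.9 in its 4 comparisons. In all, 12 such comparisons were made, and none can pass 0.05 in this design.

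**Figure D3:**
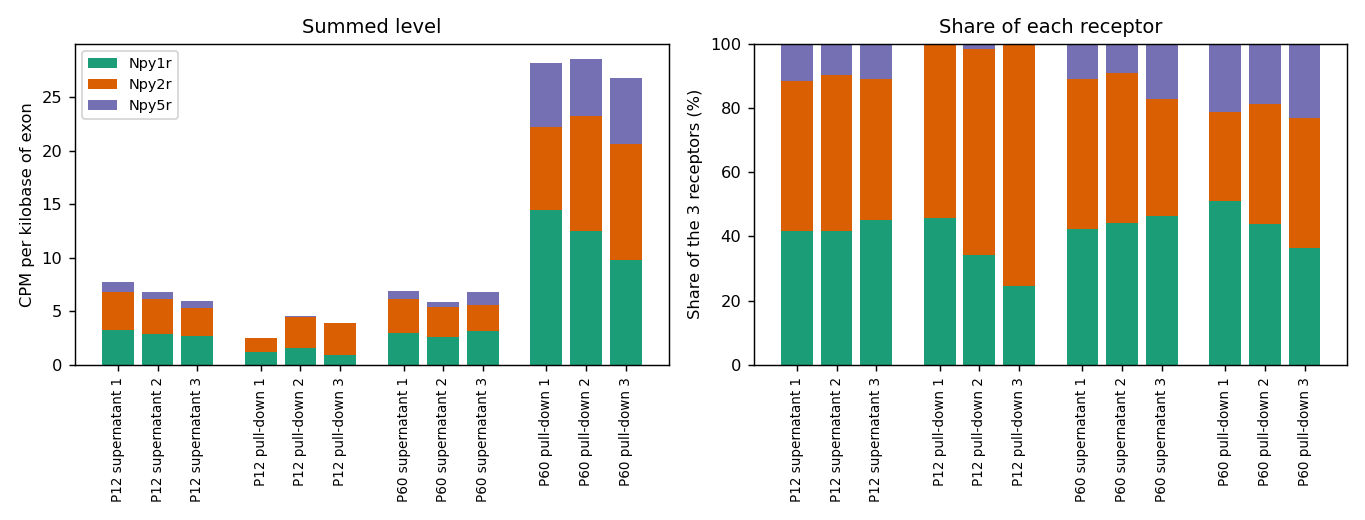
Stacked bars of Npy1r, Npy2r and Npy5r in each of the 12 libraries, as CPM per kilobase of exon (left) and as percent of the sum of the 3 (right). The P60 pull-downs sum to 26.8 to 28.5 CPM per kilobase, against 2.51 to 7.69 in the other libraries, and Npy5r is almost missing from the P12 pull-downs.

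Across the 12 libraries, Npy1r and Npy5r followed each other closely. The Pearson correlation of log2(CPM + 0.5) was 0.984 between the 2, against 0.894 for Npy1r with Npy2r and 0.877 for Npy2r with Npy5r. Among the 15311 genes ranked, Npy5r was the second most like to Npy1r, after Prdm12 (0.985) and before Socs3 (0.960), and Npy1r was the most like to Npy5r, before Rnf128 (0.975) and Prdm12 (0.968). Prdm12 is a transcription factor of POMC neurons and was at mean levels of 1.40, 7.13, 82.0 and 5.28 CPM in the P12 pull-down, P12 supernatant, P60 pull-down and P60 supernatant, the same order as Npy1r up to the overlapping supernatants. Socs3 encodes an inhibitor of leptin receptor signalling and Rnf128 an E3 ubiquitin ligase. The genes most like Npy2r were Cd24a (0.968), Tbx3 (0.947) and Tmem176b (0.947), of which Tbx3 is another transcription factor of arcuate neurons. The receptors' correlations with Pomc were lower, at 0.808, 0.883 and 0.781 for Npy1r, Npy2r and Npy5r. These values describe 12 libraries that share 4 groups and differ in depth, so that any gene high in the P60 pull-downs alone correlates with them.

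The ligand did not follow its receptors at P60. Npy itself was at 12.8, 8.15 and 12.0 CPM in the P60 pull-downs and 17.0 to 21.5 CPM in the supernatants, and at P12 at 9.83, 8.66 and 18.3 against 20.7 to 23.9 CPM. It was lower in the pull-down in 3 of 3 pairs at both ages without being called (log2 fold change -0.57 ± 0.34, adjusted p = 0.331 at P60, and -0.58 ± 0.52, adjusted p = 0.621 at P12). Its correlation with the 3 receptors over the 12 libraries was -0.261, -0.337 and -0.145.

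The adult receptor levels were also set beside markers of the AGRP neurons, which carry NPY receptors too. Agrp was at 1.09, 13.2 and 0.834 CPM after pull-down at P60 and at 3.70 to 6.45 CPM in the supernatants, and was not called (-1.05 ± 0.93, adjusted p = 0.555). Replicate 2, the P60 pull-down high in Agrp, held Npy1r, Npy2r and Npy5r at 43.2, 36.2 and 13.6 CPM. Replicates 1 and 3 held Npy1r at 49.9 and 33.8, Npy2r at 26.4 and 36.6 and Npy5r at 15.3 and 15.8 CPM. The part of AGRP neurons in these levels was not tested. The summed level of the 4 AGRP neuron markers was 19.5 to 31.7 CPM in the P60 pull-downs, below the 50.2 to 57.2 CPM of the supernatants, and none of the 4 was at 0 in a whole group. Of the 4, 1 was called lower in the pull-down at P60 (median log2 fold change -1.11) and 0 were called at P12 (median -0.10). Between the pull-downs, 1 of the 4 was called lower at P60. At P12 Agrp was at 16.2, 9.16 and 0.0505 CPM in the pull-downs and at 3.66 to 8.05 in the supernatants, and the marker sum was 45.7 to 84.4 against 63.2 to 71.4 CPM. Of the glial lists, the summed astrocyte markers at P12 were at 484 to 628 CPM after pull-down and at 365 to 421 CPM in what was left, and at P60 at 255 to 294 and 342 to 379 CPM. Only 1 of the 6 astrocyte markers was called higher at P12 (median log2 fold change 0.11), and 2 were called lower at P60 (median -0.34). The 4 tanycyte markers summed to 107 to 137 CPM against 60.2 to 65.2 at P12 and to 74.3 to 80.9 against 51.0 to 65.5 at P60, and the 5 oligodendrocyte markers to 657 to 934 against 872 to 955 and to 684 to 783 against 1571 to 1611. The higher tanycyte sums did not hold for the whole list, of which 1 of the 4 was called higher at each age. Its median log2 fold change was 0.07 at P12 and -0.68 at P60. The 3 endothelial markers summed to 2.12 to 23.5 CPM against 7.86 to 9.54 at P12 and to 10.3 to 18.7 against 4.15 to 7.62 at P60. The endothelial sum was thus higher in the P60 pull-down, but only 1 of the 3 genes was called higher. Their median log2 fold change at P60 was -0.54. The 4 markers of KNDy neurons, another arcuate type, summed to 2.22 to 14.2 against 15.5 to 16.5 at P12, with Kiss1 at 0 in those pull-downs, and to 17.9 to 41.1 at P60, a range that holds all 3 of the P60 supernatants. Of the 3 KNDy markers tested at P60, 1 was called higher and 1 lower in the pull-down (median log2 fold change -0.55). The oligodendrocyte precursor and microglia sums of pull-down and supernatant overlapped at both ages. Of the 6 markers of the pituitary, the other main site of Pomc expression, Pou1f1 was at 0 in the libraries of all 4 groups. Tbx19, which the study describes as specific to the pituitary, was not at 0 throughout any of the 4 groups. The sum of the 6 was 1.74 to 3.15 CPM in the P60 pull-downs and 0 to 13.1 CPM in those at P12. The part of these cell types in the receptor values was not tested.

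The remaining members of the family were rare or at 0. Pyy, the gut peptide gene that signals through Y2, had no count in any of the 12 libraries, which allows up to 0.0128 CPM over all of them. Dpp4, the peptidase that trims NPY and PYY into forms that no longer act on Y1, had 6, 80 and 11 counts in the P60 pull-downs, 20, 37 and 12 in their supernatants, 9, 0 and 0 in the P12 pull-downs and 20, 43 and 50 in theirs. It was tested and not called at either age (adjusted p = 0.598 at P12 and 0.905 at P60). Ppyr1, the Y4 receptor, had 21 counts in replicate 2 of the P12 pull-downs, 1 in a P12 supernatant and none elsewhere. Npy6r had 16 counts in replicate 1 of the P12 pull-downs, 3 to 13 in each supernatant of that age and 0 to 6 in any P60 library. Ppyr1 and Npy6r were too rare to be tested, and each had its highest count in a single P12 pull-down whose 2 partners held none.

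The genes through which these receptors signal were counted in the same comparisons. Of 57 genes for Gi/o alpha, beta and gamma subunits, GIRK channels, the P/Q- and N-type calcium channels, adenylyl cyclases, receptor kinases, arrestins and RGS proteins, 55 were tested. At P60, 2 were called higher and 2 lower in the pull-down (median log2 fold change -0.15, against -0.10 over all genes tested), where 7.11% of all genes were called higher and 4.53% lower. These were Gnai2, a Gi alpha subunit (0.47 ± 0.14, adjusted p = 0.0203), Cacna1a, the P/Q-type calcium channel (0.59 ± 0.15, adjusted p = 0.00619), and the RGS genes Rgs8 (-0.48 ± 0.15, adjusted p = 0.0307) and Rgs17 (-0.51 ± 0.14, adjusted p = 0.0140), whose products speed the shutting off of G proteins. All 4 calls were lost without replicate 3 (adjusted p = 0.308, 0.247, 0.436 and 0.280), at fold changes of 0.45, 0.49, -0.38 and -0.46, and those of Gnai2 and Rgs8 also without replicate 2 (0.0670 and 0.0593). With scaling to library size alone those of Gnai2 (0.24, adjusted p = 0.266) and Cacna1a (0.37, adjusted p = 0.106) were lost. The GIRK subunits, the channels through which NPY silences neurons, had 0 of 4 called by edgeR at either age (1 at P12, Kcnj3, and 0 at P60 at an unadjusted p under 0.05, and 0 by DESeq2).

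At P12, 3 of the 55 were called higher and 2 lower (median -0.12, against -0.27 over all genes), where 6.28% and 1.95% of all genes were. Cacna1a (0.67 ± 0.16, adjusted p = 0.0134) and Cacna1b, the N-type calcium channel (0.68 ± 0.17, adjusted p = 0.0173), were higher in the pull-down. Both calls were lost without replicate 2 (0.55 and 0.66, adjusted p = 0.128 and 0.0760) and under scaling to library size alone (adjusted p = 0.216 and 0.228). With a correction for gene length both were also lost, at smaller fold changes (0.29 and 0.35, adjusted p = 0.404 and 0.297). Rgs12 was higher (1.38 ± 0.31, adjusted p = 0.00867; 0.104 without replicate 3), and the gamma subunit genes Gng12 (-1.03 ± 0.25, adjusted p = 0.0133; 0.0502 without replicate 1) and Gng2 (-0.71 ± 0.14, adjusted p = 0.00349) were lower. None of the 55 was called by edgeR in the difference between ages (8 at an unadjusted p under 0.05, and 1, Kcnj3, by DESeq2). The fitted values of the coupling genes at P60 ran from -2.18 for Rgs5 (adjusted p = 0.176) to 0.71 for Rgs12 (adjusted p = 0.0514), where the receptors were at 2.01 to 3.13. Between the supernatants of the 2 ages, where none of the receptors was called, 15 of the 55 coupling genes were called higher and 24 lower at P60, where 20.9% and 20.8% of all genes were, from -1.41 for Gnb4 to 2.17 for Gng11, both genes of G protein subunits. Between the pull-downs of the 2 ages 1 of the 55 was called higher at P60 and 4 lower, where 1.89% and 3.11% of all genes were. The higher one was Gnai2 (1.10 ± 0.22, adjusted p = 0.00836; 1.07, adjusted p = 0.0592 without P60 PD replicate 3), and the lower ones were Gnb4, Grk4, Rgs9 and Adcy1, at -1.78 to -0.84. Of these, the call of Rgs9 was kept whichever library was left out, and the calls of the other 3 were each lost without at least 1 library, with Gnb4 at -1.89 to -1.67, Grk4 at -1.79 to -1.16 and Adcy1 at -0.99 to -0.65.

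Other receptors that couple to the same G proteins gave the comparison for a receptor as such. Of 15 of them (somatostatin, opioid, galanin, melanin-concentrating hormone, cannabinoid and GABA-B receptors), none was called higher or lower by edgeR at P12, at P60 or in the difference, with medians of -0.81, -0.34 and 0.71. At an unadjusted p under 0.05 there were 1, 2 and 1 of them, and DESeq2 called 1 (Sstr2) at P12 and none in the other 2 comparisons. At P60 the highest of the 15 was Oprd1, the delta opioid receptor, at 0.88 (adjusted p = 0.442), and the lowest Galr3, a galanin receptor, at -1.51 (adjusted p = 0.686). Npy1r, Npy2r and Npy5r were all above this range, at 2.30, 2.01 and 3.13. At P12 the range of the 15 was wider, from -7.12 for Galr3 (adjusted p = 0.353) to 0.65 for Sstr3 (adjusted p = 0.676), and the 3 NPY receptors, at -5.22 to -0.11, lay inside it. In the difference between ages the highest of the 15 was Galr3 at 5.33 (edgeR, adjusted p = 0.674). Npy1r at 3.19 and Npy2r at 2.07 were below it, and Npy5r at 7.77 was above. Between the pull-downs the highest was Oprd1 at 2.65 (adjusted p = 0.367), above Npy2r at 1.85 and below Npy1r at 3.14 and Npy5r at 7.49.

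**Figure D4:**
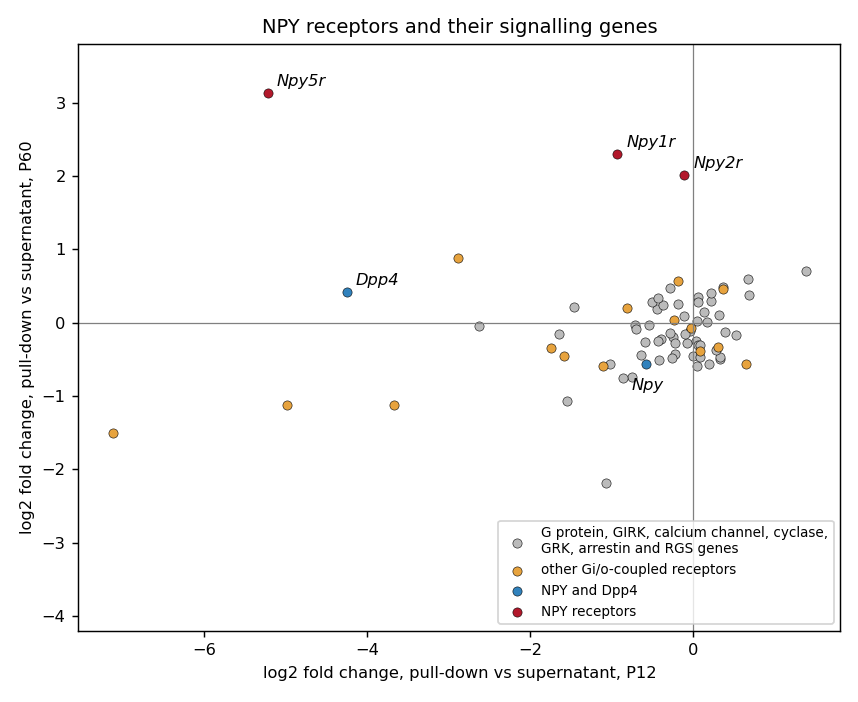
Fitted log2 fold change of pull-down against supernatant at P12 (horizontal) and P60 (vertical) for the 3 NPY receptors, Npy and Dpp4, the tested coupling genes and the other Gi/o-coupled receptors, 1 point per gene. The NPY receptors, at 2.01 to 3.13 on the vertical axis, lie above all the other points, of which the highest is Oprd1 at 0.88, while on the horizontal axis they fall within the spread of the rest.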

How the data were processed

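TRAP-seq libraries of 12 samples were read from the deposited table of counts per gene, which the authors made, per the labels and the published methods, with FastQC, TopHat2 2.0.13 and Bowtie2 2.2.1 (mm10) and HTSeq, with no normalization. The strand setting of the counting is not given in the sources used here, and the labels name both polyA and ribo-depleted RNA. CPM is a count divided by the library's total, times 1000000. Tests were edgeR 4.0.16 quasi-likelihood fits (R 4.3.3, TMM scaling, filterByExpr, Benjamini-Hochberg adjusted p under 0.05 over all genes tested). Pull-down was compared with supernatant within each age with the replicate number as a block, as in the study's paired model, the difference between ages was fitted over all 12 libraries with pairs as a block, and the ages were compared without a block. Same-numbered libraries of a pair hardly deviated together (correlation 0.0106 to 0.0416), and the pairing rests on the study's methods. Exonic lengths came from GENCODE M21, and 98.3% of the genes had one. Promoters were matched by symbol for 3 of 3 receptors. The edgeR fits were also run on simulated counts with known changes. These had no pair effect and smaller changes than the pull-down effects fitted for the 3 receptors at P60 and for Npy5r at P12. They do not bear on the fits of the receptors. Alternatives were library size, RLE scaling, DESeq2 1.42.0, no filter, no block, a length correction, 1 fit of all libraries and leaving out each pair or library. The members, the gene lists and the tests were chosen with earlier results of these data known. Named genes were the 3 receptors, the measured genes of the NPY family, Pomc, GFP and Agrp, up to 4 called genes with the largest change of each list, and the 3 genes most correlated with each receptor. Oprd1, Galr3, Sstr2, Sstr3, Kcnj3, Rgs5, Gng11 and further marker genes were named after their values were seen. Ppy was not analysed here. Replicates are independent experiments according to the study.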

Additional observations from a re-analysis of the deposited data

Results flagged for a closer look

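The pull-down effect differed between P12 and P60 for 2 of the 3 receptors by a direct test of the difference (edgeR interaction term over 12 libraries, adjusted over 15311 genes). For Npy1r the difference was 3.19 on the log2 scale, with the pull-down lower than the supernatant in 3 of 3 pairs at P12 and higher in 3 of 3 at P60. For Npy5r it was 7.77, with the same directions in 3 of 3 pairs at each age. Both calls were lost when any P60 pair was left out, and the Npy5r value rests on 3 counts in the P12 pull-downs. All 5 POMC neuron markers were called higher at P60 in the same test, so such a difference was not particular to the receptors.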

How the results depend on the processing

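The effect of the replicate block was small for the receptors: without it the P60 log2 fold changes were 2.30, 2.04 and 3.07 for Npy1r, Npy2r and Npy5r, the difference between ages was 3.16, 2.02 and 7.37, and no call of a receptor changed. With all 12 libraries in 1 fit, Npy5r became called at P12 (-4.66) and lost its call at P60 (3.12). DESeq2 called the Npy2r difference between ages (2.07). Leaving out 1 pair or library at a time, values ran at P12 from -1.15 to -0.81 (Npy1r), -0.43 to 0.36 (Npy2r) and -8.20 to -4.18 (Npy5r). At P60 they ran from 2.16 to 2.50, 1.84 to 2.31 and 2.87 to 3.38, and for the difference from 3.05 to 3.43, 1.63 to 2.45 and 6.96 to 11.13. Between pull-downs they ran from 3.02 to 3.40, 1.56 to 2.04 and 6.83 to 10.63, and between supernatants from -0.13 to 0.016, -0.32 to -0.14 and -0.26 to 0.35. The Npy1r share in the P60 pull-downs ran from 40.2% to 47.5%, an alternative chosen after seeing the data. Among the other genes, the Agrp log2 fold change turned at P12 without the block (0.76), with the length correction (0.32) and with a pair left out (-1.96 to 1.04), and at P60 without the block (0.27) and with a pair left out (-2.44 to 0.0091). That of Npy turned at P12 with the length correction (0.30), and that of Dpp4 at P60 with a pair left out (-0.29 to 1.20). The count of all genes called at P12 was 1222, and 1924 with library size alone. At P60 it was 1682, 851 in the fit of all libraries and 838 to 1837 with a pair left out. For the difference it was 172, 468 by DESeq2, 363 without a filter, 113 with the length correction and 64 to 241 with a pair left out. Between pull-downs it was 678, 1275 by DESeq2, 1098 without a filter, 2761 in the fit of all libraries and 247 to 816 with a library left out. Between supernatants it was 6350, 596 in the fit of all libraries and 5400 to 5828 with a library left out. The causes were not tested. The P12 value of Npy5r rests on 3 counts in the pull-downs.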
